A study of Homo sapiens with 6 samples.

Results

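The 10 genes described here were 4 ID factors (ID1, ID2, ID3 and ID4) and 6 genes of the bone morphogenetic protein (BMP) pathway, namely the ligands BMP2, BMP4 and BMP7, the receptors BMPR1A and BMPR2, and the pseudoreceptor BAMBI. They were picked by name from the 26334 genes of the count table, with earlier results of these data known, and all 10 were present and passed the filter on low counts. Expression was measured by RNA-seq of poly-A RNA in MCF10DCIS.com (hereafter MCF10DCIS), a human breast cancer cell line of the MCF10A lineage that forms lesions resembling ductal carcinoma in situ in mice. The control cells (shLuc, n = 3) carried a vector with an shRNA against luciferase, a sequence that human cells do not have, and the silenced cells (shWDR5, n = 3) carried the same vector with an shRNA against WDR5. In both, the U6 promoter drove the shRNA, the vector also encoded TagRFP and a puromycin resistance gene, and the cells were selected with puromycin and grown in medium with horse serum. The study silenced WDR5, a WD-repeat protein that MLL-type enzymes need to methylate histone H3, with pooled shRNAs, so effects of single shRNAs cannot be told apart here. Total counts were between 38218108 and 48500509 in the shLuc libraries and between 46097058 and 57640167 in the shWDR5 libraries. Nothing in the labels says whether the replicates were separate infections, so the p-values measure only the spread between these samples, which may be technical.

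BMPs are secreted ligands of the TGFβ superfamily that bring together type I and type II receptor kinases at the cell surface. The activated type I receptor phosphorylates SMAD1, SMAD5 and SMAD9, which enter the nucleus with SMAD4 and switch on target genes, among which the ID genes are the best known. ID proteins are helix-loop-helix factors without a DNA-binding region, so they pair with E proteins and keep them off DNA, and in epithelial cells they are known for holding back differentiation. BAMBI resembles a type I receptor without the kinase and dampens both BMP and TGFβ signalling.

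Silencing was visible in every library. WDR5, at chr9:137001210-137025094 (hg19, plus strand), was at 52.6, 48.5 and 51.3 CPM (read counts relative to the library size, scaled by the TMM method) in the 3 shLuc replicates and at 23.4, 24.4 and 20.8 CPM in the 3 shWDR5 replicates, and the groups did not overlap. The transcript fell by 1.15 on the log2 scale (SE 0.07, adjusted p = 8.67e-07, edgeR quasi-likelihood test), to 0.450 of its shLuc level. Several markers of the labelled epithelial line were abundant in both groups, while ESR1 was low (3.68 CPM in shLuc and 3.44 CPM in shWDR5 cells). Their levels were not constant: CDH1 fell from 496 to 242 CPM and KRT14 rose from 72.1 to 176 CPM. KRT5, a basal keratin, was at 820 ± 36.5 CPM in shLuc and 1546 ± 88.7 CPM in shWDR5 cells (SD, n = 3), and EPCAM was at 283 ± 21.9 and 225 ± 18.0 CPM. PGR, the progesterone receptor gene, had at most 2 counts in any library. Of the 13 markers of leukocytes, endothelium, fibroblasts, pericytes and fat cells, 6 passed the filter, and the summed level of all 13 was between 10.9 and 14.3 CPM in each library. CD3E and LUM had no count in any library, and the most abundant of the 13, PECAM1, was at 6.50 CPM in shLuc and 3.97 CPM in shWDR5 cells. The part of these markers in the results below was not tested.

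ID1, ID3 and BAMBI are textbook targets of BMP signalling that were higher in shWDR5 cells, and the sequence upstream of their transcription starts is shown for that reason. They were picked for that rise. Each run holds the 250 bases before the start, 5′ to 3′ on the gene's strand, from RefSeq on GRCh38.p14. The table of promoters had an entry for 8 of the 10 genes. Capitals mark the letters GGCGCC, a GC-rich SMAD element, and CAGAC, a SMAD box, on either strand (a CAGAC on the other strand reads GTCTG, and GGCGCC reads the same on both). Of 35116 promoter entries of this length, 16.4% held GGCGCC and 38% held CAGAC. The ID1 window is chr20:31605039-31605288 on the plus strand, the ID3 window is chr1:23559502-23559751 on the minus strand, and the BAMBI window is chr10:28677271-28677520 on the plus strand.
ID1: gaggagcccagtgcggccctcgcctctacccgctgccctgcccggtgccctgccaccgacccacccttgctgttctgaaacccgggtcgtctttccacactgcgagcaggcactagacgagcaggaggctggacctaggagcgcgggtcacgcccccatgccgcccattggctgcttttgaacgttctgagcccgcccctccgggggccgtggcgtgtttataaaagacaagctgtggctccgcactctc
ID3: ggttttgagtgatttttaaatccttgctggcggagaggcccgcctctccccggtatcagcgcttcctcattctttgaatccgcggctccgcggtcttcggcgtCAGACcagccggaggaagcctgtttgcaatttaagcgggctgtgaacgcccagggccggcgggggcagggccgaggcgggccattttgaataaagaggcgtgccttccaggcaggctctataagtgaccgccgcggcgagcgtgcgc
BAMBI: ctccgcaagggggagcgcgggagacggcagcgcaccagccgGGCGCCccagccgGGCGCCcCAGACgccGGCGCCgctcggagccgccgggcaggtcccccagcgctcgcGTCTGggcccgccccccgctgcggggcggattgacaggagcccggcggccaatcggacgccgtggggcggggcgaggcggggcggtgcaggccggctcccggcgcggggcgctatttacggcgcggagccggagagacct
The BAMBI window held GGCGCC at 3 places and CAGAC at 2, the ID3 window held 1 CAGAC, and the ID1 window held neither. Windows of genes that were not called higher also held these letters. Of the BMP4 windows, 1 had 1 GGCGCC and 1 CAGAC, and another had 1 CAGAC. The window of ID4, which did not pass the test (log2 fold change 0.58), had 1 CAGAC. The window of BMPR2, which was called higher (log2 fold change 0.47) and is not shown, had 1 GGCGCC and 2 CAGAC. Those of ID2 and BMPR1A, which were not called higher, had neither. A match of letters is not a bound site, and the absence of these letters from so short a window says nothing about SMAD binding elsewhere at the gene. GC content was 66.0% for ID1, 62.0% for ID3 and 81.2% for BAMBI, beside a median of 58% over all entries.

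Of the 10 genes, 5 were upregulated (ID1, ID3, BMP2, BAMBI and BMPR2), 3 were downregulated (BMP4, BMP7 and BMPR1A), and ID2 and ID4 did not pass the test at an adjusted p under 0.05. A large part of the transcriptome differed between shWDR5 and shLuc cells. Of 16117 genes tested, 4291 (26.6%) were higher and 4821 (29.9%) lower, so single calls among the 10 are to be read against that background. With the size rule that the study applied to its xenografts (an absolute log2 fold change of at least 0.6 and more than 0.5 RPKM beside the adjusted p), ID3, BMP2 and BAMBI were upregulated and BMP4 and BMP7 downregulated, against a background of 7.90% of all genes tested higher and 10.5% lower. ID3 was close to the minimum of this rule. Its log2 fold change was below 0.6 with library totals only (0.575), without shLuc replicate 2 (0.569) and without shWDR5 replicate 1 (0.598). The shLuc and shWDR5 values of 8 of the 10 genes did not overlap, and neither did those of 62.3% of all genes tested. The median log2 fold change was 0.48 over the 10 genes and -0.01 over all genes tested. All values are from bulk RNA, in which fewer cells expressing a gene and less RNA per cell cannot be told apart.

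The ligands moved in opposite directions. BMP2, which lies at chr20:6748745-6760910 (hg19, plus strand), is a potent inducer of SMAD1 and SMAD5 phosphorylation. It was at 26.0, 27.6 and 22 CPM in shLuc and at 44.5, 45.7 and 46.1 CPM in shWDR5 cells. All 3 shWDR5 libraries were above all 3 controls, with less spread among them than among the controls. BMP2 was upregulated 1.80-fold (log2 fold change 0.85, SE 0.08, adjusted p = 1.29e-05).

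BMP7, at chr20:55743809-55841707 on the minus strand, is a ligand known for opposing TGFβ-driven mesenchymal change in epithelial cells. It was at 16.8, 16.3 and 16.1 CPM in shLuc and at 9.05, 9.48 and 8.32 CPM in shWDR5 cells. The groups were far apart, and BMP7 fell by 0.87 on the log2 scale (SE 0.07, adjusted p = 5.48e-06), to 0.547 of its control level.

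BMP4, at chr14:54416455-54423554 on the minus strand, is closely related to BMP2 and binds the same receptors. It was scarce, with 46 to 90 reads in a library. It was at 1.82, 1.81 and 1.81 CPM in shLuc and at 0.993, 1.25 and 1.04 CPM in shWDR5 cells. The groups did not overlap, and BMP4 fell by 0.72 on the log2 scale (SE 0.14, adjusted p = 0.00149).

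Per length of transcript, BMP2 held a larger share of the RNA of the 3 ligands in shWDR5 cells. The summed level of BMP2, BMP4 and BMP7 was 12.9 ± 0.966 RPKM in shLuc and 17.2 ± 0.321 RPKM in shWDR5 cells (SD, n = 3), where RPKM is the TMM-scaled CPM per kilobase of summed exon length. BMP2 made up 58.9 to 64.1% of that sum in the shLuc libraries and 83.1 to 85.1% in the shWDR5 libraries. The share of BMP7 was 29.5 to 33.8% in shLuc and 12.0 to 13.5% in shWDR5 libraries, and that of BMP4 was 6.37 to 7.37% and 2.84 to 3.45%. None of these shares overlapped between the groups. They are given as values and were not tested.

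Of the 11 other BMP and GDF ligands listed, 4 passed the filter. BMP8A was upregulated, from 1.87 ± 0.233 to 3.52 ± 0.503 CPM (log2 fold change 0.91, adjusted p = 0.000317), while BMP8B, its near-identical copy, was at 5.29 ± 0.0951 and 4.78 ± 0.375 CPM and did not pass. How reads shared by these copies were assigned is not given in the sources used here, so both values are uncertain. BMP6 fell by 0.38 on the log2 scale (adjusted p = 0.0260), a call kept in 8 of the 14 alternative settings (adjusted p up to 0.162). It was lost with DESeq2 and on leaving out any 1 library other than shLuc replicate 3, with log2 fold changes of -0.39 to -0.29. BMP3 did not pass (adjusted p = 0.0768), except without shWDR5 replicate 1, where its log2 fold change was -0.73 (adjusted p = 0.0299, beside 0.269 as the highest in the other settings).

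The receptors also split. BMPR1A, a type I receptor for BMP2 and BMP4 at chr10:88516396-88684945 on the plus strand, was at 31.1, 34.5 and 35.3 CPM in shLuc and at 23.2, 26.6 and 25.7 CPM in shWDR5 cells. Every shWDR5 library was below every control. BMPR1A fell by 0.42 on the log2 scale (SE 0.08, adjusted p = 0.000897), to 0.748 of its control level. RefSeq lists the pseudogenes BMPR1AP1 and BMPR1AP2, and reads shared with them could be split or lost.

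BMPR2, the type II receptor at chr2:203241050-203432474 on the plus strand, was at 55.2, 77.7 and 65.3 CPM in shLuc and at 79.4, 87.7 and 108 CPM in shWDR5 cells. The highest control and the lowest shWDR5 library nearly touched, and the spread within each group was wide. BMPR2 was upregulated 1.39-fold (log2 fold change 0.47, SE 0.13, adjusted p = 0.0104). Its log2 fold change was between 0.34 and 0.60 over the 14 alternative settings, with adjusted p up to 0.0472.

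All 7 of the other receptors and co-receptors that were tested changed, 4 upward and 3 downward, beside 26.6% higher and 29.9% lower over all genes tested. BMPR1B, the second BMP type I receptor, was upregulated from 5.59 ± 0.910 to 9.95 ± 0.675 CPM (log2 fold change 0.84, adjusted p = 0.000140), opposite to BMPR1A. ACVR2A, a type II receptor shared with activin, rose by 0.67 on the log2 scale (adjusted p = 0.000158), and ACVR1, a type I receptor, rose by 0.41 (adjusted p = 0.00175). Of the repulsive guidance molecules, which act as BMP co-receptors, RGMB rose by 0.73 (adjusted p = 1.07e-05) and RGMA fell by 0.62 (adjusted p = 2.86e-05). ACVR2B and ENG, the co-receptor endoglin, fell by 0.57 and 0.46. The direction therefore differed within type I receptors, within activin type II receptors and within the co-receptors.

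The SMADs that carry the signal were uneven. SMAD1 was upregulated from 13.2 ± 0.849 to 22.6 ± 3.45 CPM (log2 fold change 0.77, SE 0.11, adjusted p = 0.000144). SMAD5, the most abundant of the receptor-activated SMADs of this branch, was at 111 ± 21.9 and 104 ± 17.9 CPM and did not pass (log2 fold change -0.08, SE 0.15, adjusted p = 0.652). SMAD7, an inhibitory SMAD that both BMP and TGFβ induce, rose by 0.52 on the log2 scale (adjusted p = 0.000400), whereas SMAD6, the inhibitor more specific to BMP signalling, was at 4.52 ± 0.803 and 4.74 ± 0.336 CPM (adjusted p = 0.661). SMAD9 rose by 0.47 (adjusted p = 0.0352), with groups that overlapped, and SMAD4 fell by 0.23 (adjusted p = 0.0489). The SMAD9 call was lost in 5 of the 14 alternative settings (adjusted p up to 0.123) and the SMAD4 call in 8 (adjusted p up to 0.210). Leaving out shLuc replicate 1 or 3 or shWDR5 replicate 2 or 3 ended the call of SMAD9, with log2 fold changes of 0.34 to 0.48, and leaving out shLuc replicate 2 or 3 or shWDR5 replicate 1 or 2 ended that of SMAD4, with -0.26 to -0.15.

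Among the ID factors, ID1 and ID3 rose and ID2 and ID4 did not pass the test. ID1, at chr20:30193086-30194317 on the plus strand, was the most abundant of the 10 genes per length, at 71.5 ± 5.91 RPKM in shLuc. It was at 90.2, 80.1 and 94.2 CPM in shLuc and at 120, 127 and 124 CPM in shWDR5 cells. No library of one group reached the other. ID1 was upregulated 1.40-fold (log2 fold change 0.49, SE 0.07, adjusted p = 0.000135), below the size rule given above.

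ID3, at chr1:23884421-23886285 on the minus strand, was at 34.1, 32.5 and 39.0 CPM in shLuc and at 57.2, 56.6 and 49.9 CPM in shWDR5 cells. The groups were again apart. ID3 was upregulated 1.55-fold (log2 fold change 0.63, SE 0.08, adjusted p = 9.95e-05).

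ID2, at chr2:8822113-8824583 on the plus strand, was at 10.5, 11.8 and 18.4 CPM in shLuc and at 11.8, 16.3 and 13.5 CPM in shWDR5 cells. The groups overlapped almost fully, with the third control replicate highest of all. Its log2 fold change was 0.04 (SE 0.19, adjusted p = 0.888), with a larger SE than that of ID1 or ID3. RefSeq lists ID2B, a pseudogene of ID2, and reads shared with it could be split or lost. ID4, at chr6:19837601-19842431 on the plus strand, was the scarcest, with 27 to 113 reads in a library. It was at 1.03, 0.696 and 1.44 CPM in shLuc and at 0.799, 1.99 and 1.92 CPM in shWDR5 cells. The first shWDR5 replicate lay among the controls and the others above them. Its log2 fold change was 0.58 (SE 0.33, adjusted p = 0.164). Without that replicate it was 0.89 (adjusted p = 0.00845, beside 0.467 as the highest adjusted p in the other settings), so 1 library decided this call.

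The summed ID level was 110 ± 10.9 RPKM in shLuc and 155 ± 5.24 RPKM in shWDR5 cells (SD, n = 3; not tested), with no overlap between groups (100 to 122 RPKM in shLuc libraries and 152 to 161 RPKM in shWDR5 libraries). ID1 held 65.0 ± 2.31% of that sum in shLuc and 64.8 ± 1.53% in shWDR5 cells, and ID3 held 25.8 ± 0.464% and 28.4 ± 1.87%. The ID1 shares overlapped between the groups, and the ID3 shares lay at 25.3 to 26.2% in shLuc and 26.6 to 30.3% in shWDR5 libraries. In shLuc cells the levels per length ran from ID1 through ID3 (28.4 ± 2.76 RPKM), ID2 (9.97 ± 3.09), BMPR1A (9.31 ± 0.615), BMP2 (8.0 ± 0.923), BAMBI (6.57 ± 0.393), BMPR2 (5.47 ± 0.932), BMP7 (4.06 ± 0.0836) and BMP4 (0.874 ± 0.00406) to ID4 (0.272 ± 0.0957). From ID2 to BMPR2 each gene overlapped with the next in this order. In shWDR5 cells BMP2 (14.4 ± 0.275 RPKM) and BAMBI (12.4 ± 0.184) stood above ID2 (10.2 ± 1.68) in every library. The SD of BMP4 in shLuc cells is smaller than counting error alone would give for so few reads.

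BAMBI, at chr10:28966424-28971868 on the plus strand, showed the largest log2 change of the 10 genes in the main test. This rank was not stable over the alternative settings. With library totals only, BMP7 changed more (-0.928, beside 0.855 for BAMBI). Without shLuc replicate 2, BMP2 changed more (0.910, beside 0.868 for BAMBI), and so did BMP7. BAMBI was at 11.1, 10.8 and 12.1 CPM in shLuc and at 21.1, 21.2 and 21.7 CPM in shWDR5 cells. The groups were far apart, with little spread in either. BAMBI was upregulated 1.88-fold (log2 fold change 0.91, SE 0.07, adjusted p = 2.75e-06).

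Of the 10 other inhibitors that act at the membrane or inside the cell, 4 rose, 2 fell and 4 did not pass, so 60.0% were called, which is near the share of all genes tested (26.6% higher and 29.9% lower). PMEPA1 is a membrane adaptor known mainly for sequestering the receptor-activated SMADs of TGFβ signalling, not those of the BMP branch. It was at 89.8, 94.9 and 94.5 CPM in shLuc and at 435, 376 and 431 CPM in shWDR5 cells (log2 fold change 2.15, SE 0.07, adjusted p = 2.86e-08). SKI and SKIL, nuclear corepressors of SMAD complexes, rose by 0.68 (adjusted p = 5.38e-06) and 0.69 (adjusted p = 0.00308) on the log2 scale, and CTDSP1, a phosphatase, by 0.19 (adjusted p = 0.0296). CTDSP2 and CTDSPL, phosphatases of the same family, fell by 0.48 (adjusted p = 0.000146) and 0.17 (adjusted p = 0.0258). The calls of CTDSP1 and CTDSPL were each kept in 8 of the 14 alternative settings (adjusted p up to 0.111 and 0.0854). Leaving out shLuc replicate 2 or 3 or shWDR5 replicate 1 or 3 ended that of CTDSP1, with log2 fold changes of 0.15 to 0.19, and leaving out shLuc replicate 3 or any 1 shWDR5 replicate ended that of CTDSPL, with -0.17 to -0.13. The ubiquitin ligase gene SMURF2, which targets SMADs and receptors for degradation, was at 155 ± 5.72 and 155 ± 4.72 CPM (log2 fold change 0.00, SE 0.05, adjusted p = 0.985).

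Of the 16 secreted antagonists and modulators listed, 9 were tested, of which 6 fell and 1 rose, with a median log2 fold change of -0.47, beside 29.9% lower, 26.6% higher and a median of -0.01 over all genes tested. FST, which encodes follistatin, a trap for activins and some BMPs, was the most abundant in both groups, and was at 242, 244 and 224 CPM in shLuc and at 83.3, 98.1 and 84.3 CPM in shWDR5 cells. The groups were widely separated, and FST fell by 1.42 on the log2 scale (SE 0.07, adjusted p = 2.61e-07). CHRDL1, a relative of chordin, fell by 1.19 (adjusted p = 0.000498) and SOSTDC1, an antagonist of both BMP and Wnt ligands, by 1.02 (adjusted p = 0.000149), at levels of 1.13 and 3.35 CPM in shLuc cells. NOG, which encodes the BMP trap noggin, fell by 0.41, TWSG1 by 0.47 and FSTL1 by 0.54. BMP1, which despite its name is not a BMP ligand but a protease that cuts procollagen and chordin, was the 1 gene that rose, from 38.5 ± 1.60 to 68.0 ± 7.10 CPM (log2 fold change 0.82, adjusted p = 1.27e-05). FSTL3 was at 3.53 ± 0.425 and 3.68 ± 0.471 CPM and did not pass.

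Other genes known to respond to BMP signalling went in both directions. Of the 14 listed beside the members, 10 were tested, of which 5 rose, 3 fell and 2 did not pass, beside 26.6% higher and 29.9% lower over all genes tested. The 5 include SMAD7 and SMAD9, already described among the SMADs. TBX3, a T-box factor of mammary development, rose from 12.0 ± 0.747 to 32.6 ± 2.68 CPM (log2 fold change 1.44, SE 0.08, adjusted p = 4.61e-07). DLX5 and HEY1 also passed but were near the limit of detection. DLX5 had 1, 4 and 2 reads in shLuc and 23, 23 and 16 in shWDR5 libraries. HEY1 had 3, 6 and 6 reads and then 18, 17 and 13. Both met the filter on low counts only through the shWDR5 libraries, where they were high, so whether they were tested depended on the change itself. No conclusion is drawn from their calls, which are counted among the 5 above and the 19 over all lists. RUNX2, an osteoblast factor, fell by 1.62 on the log2 scale from 2.67 ± 0.715 CPM (adjusted p = 0.000115), GATA2 fell by 1.42 from 0.792 ± 0.109 CPM (adjusted p = 0.000549, 10 to 45 reads in a library) and GATA3, a luminal breast factor, by 0.39 (adjusted p = 0.00140). MSX2 was at 5.24 ± 0.230 and 5.00 ± 0.306 CPM and did not pass.

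The 3 genes of E proteins, which ID proteins bind, all rose. TCF12 rose from 99.0 ± 3.17 to 123 ± 1.74 CPM (log2 fold change 0.31, adjusted p = 0.000468), TCF4 by 0.41 (adjusted p = 0.00144) and TCF3 by 0.23 (adjusted p = 0.00995). The partners of E proteins TWIST1 and TWIST2, known as promoters of mesenchymal change, fell by 0.34 (adjusted p = 0.00748) and 0.57 (adjusted p = 0.00685), from 5.93 and 3.18 CPM. The other 9 of the 14 helix-loop-helix genes listed did not pass the filter. Over all lists, 48 of the 76 genes other than the 10 were tested, of which 19 rose, 18 fell and 11 did not pass, beside 26.6% higher and 29.9% lower over all genes tested. Over the 14 alternative settings these counts were 17 to 20 higher and 15 to 20 lower, with the lowest count of lower genes without shWDR5 replicate 2.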

How the data were processed

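Poly-A RNA libraries of 3 shLuc and 3 shWDR5 MCF10DCIS samples were prepared with the TruSeq kit, which does not mark strand. Per the submitters' processing notes, the tools were TopHat2 2.1.0, featureCounts and edgeR 3.2.2 on hg19; strand, multi-mapping and annotation settings are not given in the sources used here. The authors deposited raw counts per gene, which were used as they stood, and their own table of fold changes and p-values, which was not used. No exon of the 10 genes or WDR5 overlapped another gene of the table on either strand.

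Counts were tested with edgeR 4.0.16 (R 4.3.3; filterByExpr, TMM, glmQLFit and glmQLFTest, no block), with Benjamini-Hochberg adjustment over all 16117 genes tested; the SE is the absolute log2 fold change divided by the square root of F. The code was tested on simulated data. Alternatives were other scalings and filters, DESeq2 1.42.0, limma-voom 3.58.1, the replicate number as a block and each replicate left out. No label gives a batch. Replicates of a group differed by 7.11 to 18.2 times the sampling variance (chi-square per gene), so no library was a duplicate. The text names WDR5, the 10 genes and, per list, the changed genes with the largest change (at most 4) and the most abundant gene that did not pass; further genes were named after their values were seen. A gene of the epithelial marker list that this rule names is not reported here. The 10 genes and the lists were chosen with earlier results of these data known.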

Additional observations from a re-analysis of the deposited data

How the results depend on the processing

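All 8 calls among the 10 genes, 5 higher and 3 lower, held in each of the 14 alternative fits, and without shWDR5 replicate 1 a further call, ID4, was made. The size rule that the study applied to its xenografts left 1274 genes higher, 1688 lower, and of the 10 genes 3 higher and 2 lower, since it asks for a larger change and a minimum RPKM. With the replicate number as a block, 4901 genes were higher and 5511 lower, and no call changed among the 68 genes recomputed singly. Of the listed pathway genes other than the 10, 20 were higher with the block and 19 without it, and 18 were lower in both. Same-numbered samples deviated together with correlations of 0.37, 0.04 and 0.12. Replicate 1 of each group correlated best with replicate 1 of the other, and what they shared was not tested. Not every sample correlated best with its own number (shLuc replicate 2 did so with shWDR5 replicate 3, 0.21), so the numbers were not taken as pairs. Changed sign, without passing in any fit: ID2 (-0.021 with library totals only, -0.11 to 0.31 with 1 replicate left out), SMAD5 (-0.19 to 0.075 with 1 left out), FSTL3 (-0.011 with library totals only, -0.048 to 0.17), SMURF2 (-0.056 with library totals only, -0.0083 with no filter, -0.021 to 0.024), SMAD6 (-0.035 to 0.21 with 1 left out), ITGA6 (-0.0079 with library totals only) and LYZ (-0.18 to 0.0091 with 1 left out); the cause was not tested. Of 948 log2 fold changes recomputed for 68 genes (WDR5, the 10 genes, every list gene that passed and uncalled genes named in the text), 898 kept direction and call, 17 changed sign, 31 lost the call (SMAD9, SMAD4, BMP6, CTDSP1 and CTDSPL) and 2 gained it (ID4 and BMP3, both without shWDR5 replicate 1). DLX5, HEY1, GATA2 and BMP3 fell below a filter of 1 CPM in 3 samples and have no value there. No scaling moved the median of all genes by more than 0.06 (library totals only, -0.06). Depth limits the scarce genes, among them ID4, BMP4, BMP3, CHRDL1, GATA2, DLX5 and HEY1.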

Other observations

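Of the 12 markers listed for the epithelial line itself, 11 were tested, of which 6 rose, 3 fell and 2 did not pass, beside 26.6% higher and 29.9% lower over all genes tested. KRT6A, a keratin of activated basal epithelium, rose from 67.3 ± 4.15 to 239 ± 31.8 CPM (SD, n = 3; log2 fold change 1.83, adjusted p = 2.52e-07, edgeR), and KRT14, a basal keratin, from 72.1 ± 6.73 to 176 ± 18.0 CPM. CDH1, which encodes E-cadherin, fell by 1.03 on the log2 scale (adjusted p = 2.64e-07), from 496 ± 20.4 to 242 ± 6.88 CPM. ITGA6 was at 2222 ± 167 and 2299 ± 158 CPM and did not pass. ESR1, the oestrogen receptor gene, was low in both groups, at 3.68 ± 0.268 and 3.44 ± 0.586 CPM. Of the markers of other cell types, PECAM1 fell by 0.71 (adjusted p = 5.65e-05) and LYZ, at 2.78 ± 0.312 and 2.59 ± 0.205 CPM, did not pass.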
